A study of Sus scrofa with 12 samples.

Results

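The enzymes of collagen crosslinking and processing, with the collagen chaperone, were followed at the RNA level in porcine aortic valve interstitial cells (paVICs), the resident fibroblast-like cells of the heart valve. The 10 genes were chosen by name, as the rows of the count table whose gene symbol was LOX, LOXL1, LOXL2, LOXL3, LOXL4, PLOD1, PLOD2, PLOD3, SERPINH1 or BMP1. All 10 had a row among the 31908 genes listed, and all 10 were among the 13216 genes that passed the filter on low counts.

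Fibrillar collagen is built inside the cell and strengthened outside it. In the endoplasmic reticulum the lysyl hydroxylases (PLOD1, PLOD2 and PLOD3) add hydroxyl groups to lysines of the nascent chain, and the chaperone HSP47 (SERPINH1) holds the triple helix together until it leaves. After secretion BMP1 removes the C-terminal propeptide so that fibrils can form, and it also cleaves the LOX precursor. The copper-dependent lysyl oxidases (LOX and LOXL1 to LOXL4) then oxidise lysines and hydroxylysines, and the aldehydes that result form the crosslinks between chains. PLOD2 acts on the telopeptides at the chain ends, and crosslinks made from hydroxylated telopeptides are hard to degrade and are known from fibrotic tissue. Stiffening of the collagen-rich leaflet is a feature of calcific aortic valve disease.

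RNA was measured 24 h after treatment in 4 groups of 3 libraries. Vehicle cells received 0.6% DMSO and 0.1% ethanol. LPC cells received 10 µM lysophosphatidylcholine (a lipid of oxidised low-density lipoprotein) with 0.6% DMSO. Dantrolene cells received 60 µM dantrolene (a blocker of calcium release through ryanodine receptors) with 0.1% ethanol. LPC + dantrolene cells received both compounds. LPC was dissolved in ethanol and dantrolene in DMSO. The 3 replicates of every group came from the same 3 primary isolations, each pooled from the valves of 6 pig hearts, so that 1 replicate stands for several animals of unstated age. The sample titles give replicate numbers only, and the same number is read here as the same isolation. All cells had been passaged, and all were treated in low-serum medium. The cultures were bulk samples, so fewer expressing cells and less RNA per cell cannot be told apart.

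Libraries held 16489684 to 24105935 counts, and the lowest count of any of the 10 genes in any library was 907. LPC + dantrolene replicate 2 stood apart from the other treated libraries, with 7504 tested genes at or above 10 CPM (counts scaled to the effective library size) against 8069 to 8281 in the other 8 treated libraries and 7679 to 7945 in vehicle. Most fitted changes that rest on it are therefore given with and without it. All 12 markers of valve interstitial cells and fibroblasts on the list used here were present in the libraries, whereas the leukocyte markers PTPRC, CD163 and CD3E were at 0 throughout and 8 of 10 leukocyte markers averaged under 1 CPM. The summed level of 10 endothelial markers was 112 to 122 CPM in vehicle and 65.1 to 88.9 CPM in the treated libraries, so it moved with treatment. The 12 valve interstitial and fibroblast markers, whose sum is mostly COL1A1, COL1A2, COL3A1 and ACTA2, summed to 79682 to 92462 CPM in vehicle and 55718 to 73815 CPM with dantrolene, without overlap. The 13 mitochondrial genes took 1.24 to 2.12% of counts in vehicle and 2.16 to 4.17% with dantrolene, again without overlap. Their share was 2.33 to 3.19% with both compounds, also above vehicle, and 1.53 to 2.84% with LPC, overlapping vehicle. The part of these shifts in the results below was not tested.

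PLOD2, the telopeptide lysyl hydroxylase, was the only member called with LPC, where 8.54% of all genes tested were called up. Its gene lies at chr13:86402673-86513167 (RefSeq annotation of Sscrofa11.1, as for all positions given). Its normalised level was 188, 150.0 and 125 CPM in the vehicle libraries of isolations 1, 2 and 3, and 366, 478 and 419 CPM after LPC. Every LPC library lay above every vehicle library.

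In the edgeR fit over all genes the log2 fold change of PLOD2 with LPC was 1.45 ± 0.34 (SE, n = 3 per group), a 2.73-fold rise with a 95% interval of 1.71 to 4.35 (adjusted p = 0.0013, edgeR quasi-likelihood test). PLOD2 was thus 1 member called up with LPC among 10, where 8.54% of all genes tested were called up. No member was called down, where 0.144% of all genes were. The rise held in all 19 alternatives, with log2 fold changes from 1.35 to 1.61, and leaving out LPC + dantrolene replicate 2 gave 1.51.

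Dantrolene alone left PLOD2 between the vehicle and LPC levels, at 181, 285 and 225 CPM. Isolation 1 showed almost no difference from its own vehicle library (log2 difference −0.06), while isolations 2 and 3 were higher by 0.93 and 0.85. The fitted change of 0.58 (95% interval −0.08 to 1.24) did not pass the test (adjusted p = 0.424, edgeR). With both compounds the level was 242, 86.2 and 218 CPM, and the lowest of these was the library that stood apart. The change from vehicle was 0.24 (95% interval −0.42 to 0.90, adjusted p = 0.913, edgeR), and without that library it was 0.63.

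The response of PLOD2 to LPC differed with and without dantrolene. The test of that difference, the interaction of LPC with dantrolene, gave −1.79 ± 0.47 on the log2 scale (adjusted p = 0.0123, edgeR). PLOD2 was the single member called in the interaction, where 4.49% of all genes were called below 0. Without LPC + dantrolene replicate 2 the interaction was −1.52 (adjusted p = 0.0123), but it was no longer called without vehicle replicate 2 (0.067), LPC replicate 2 (0.1) or dantrolene replicate 2 (0.116), all adjusted p-values from edgeR. Over all genes the fits without vehicle replicate 2, LPC replicate 2 and dantrolene replicate 2 called 217, 4 and 31 below 0. The fit of all libraries called 593. With the replicate block, which called 277 genes below 0, the adjusted p of the PLOD2 interaction was 0.0461 (edgeR).

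The direct comparison of LPC + dantrolene with LPC put PLOD2 lower in all 3 isolations, by 0.60, 2.47 and 0.94 on the log2 scale, and the groups did not overlap. Its fitted difference was −1.21 (95% interval −1.88 to −0.54), with an adjusted p of 0.0854 by edgeR. No member was called in this comparison by edgeR or DESeq2, where 0.507% of all genes were called by edgeR in either direction and 0.288% lower. Here 3 members (LOX, LOXL4 and PLOD2) had an unadjusted p under 0.05, beside 874 of 13216 genes in either direction. PLOD2 was called lower without LPC + dantrolene replicate 1 (adjusted p = 0.0305, edgeR), a fit that called 82 of 13566 genes lower. Its difference shrank to −0.88 without LPC + dantrolene replicate 2 (adjusted p = 0.187).

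**Figure D1:**
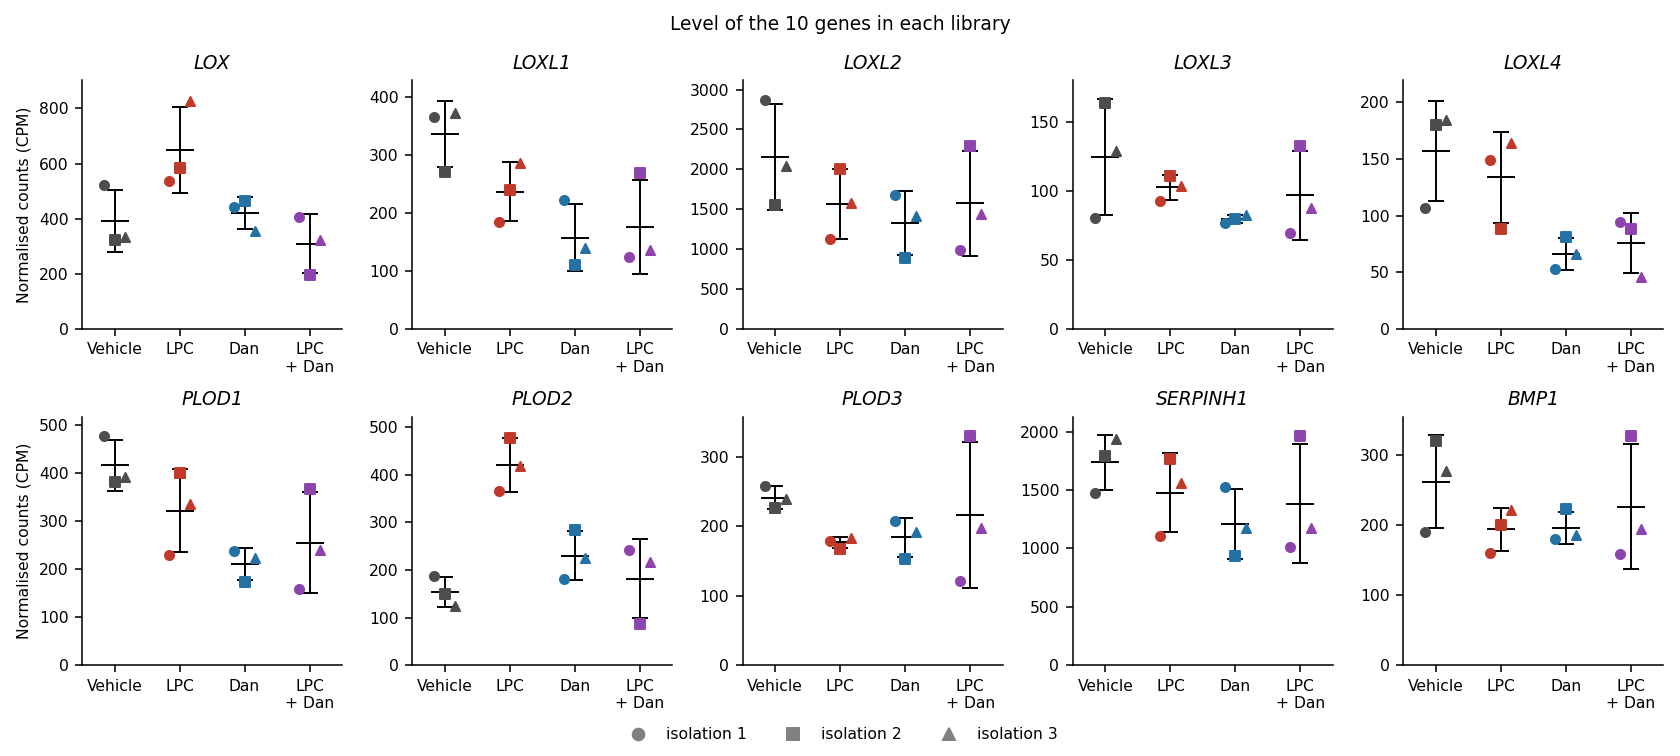
Normalised counts (CPM, linear axis from 0) of the 10 genes in each of the 12 libraries, by group. Symbols mark the isolation, and bars show the mean ± SD of 3 libraries. PLOD2 in the LPC libraries lies at 366 to 478 CPM, above all other libraries, and the LPC + dantrolene library of isolation 2 is the lowest of the 12 for PLOD2 and LOX and the highest for PLOD3, SERPINH1 and BMP1.

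The other lysyl hydroxylases did not follow PLOD2. PLOD1, which hydroxylates lysines of the helical part of the chain (chr6:71987938-72019712), was at 476, 380 and 390 CPM in vehicle and 230, 399 and 335 CPM with LPC, with overlapping groups. It was at 236, 173 and 223 CPM with dantrolene, below every vehicle library. The fall was −0.98 ± 0.33 on the log2 scale, to 0.508 of the vehicle level (adjusted p = 0.0464, edgeR).

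That PLOD1 call sat at the threshold and was made in 6 of 19 alternatives. With the replicate block its adjusted p was 0.0878, with total counts as the only scaling 0.129, and without dantrolene replicate 2 it was 0.289 (edgeR). Those fits called 77 of 13216, 61 of 13216 and 52 of 13592 genes down, against 166 of 13216 as reported. Leaving out any vehicle, LPC or dantrolene library, or LPC + dantrolene replicate 3, ended the call, with adjusted p-values from 0.0523 to 0.289. With both compounds PLOD1 was at 158, 366 and 239 CPM, each below its own vehicle library, and the change of −0.71 was not called (adjusted p = 0.27, edgeR). Without LPC + dantrolene replicate 2 the change was −1.02 and was called (adjusted p = 0.0117, edgeR). Over all genes that fit also called more, 393 of 13583 down against 119 of 13216 with all 12 libraries.

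PLOD3, which also carries glycosyltransferase activity toward hydroxylysine (chr3:8911787-8919525), was the most even member in vehicle and LPC. It was at 258, 226 and 239 CPM in vehicle and 179, 167 and 183 CPM with LPC, coefficients of variation of 6.8% and 4.6%. The LPC libraries all lay below the vehicle libraries, as did those of 10.6% of all genes tested, and the change of −0.45 did not pass the test (adjusted p = 0.57, edgeR). With dantrolene PLOD3 was at 207, 152 and 192 CPM, also below vehicle (−0.39, adjusted p = 0.654, edgeR). With both it was at 121, 330 and 197 CPM, the widest relative spread of any member in any group at 48.9%. The change from vehicle with both was −0.16, and −0.55 without LPC + dantrolene replicate 2, neither of them called.

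The balance between hydroxylases was also read within each library as a ratio of counts, which does not depend on how libraries are scaled. These ratios were chosen after their values were seen and carry no test. They compare groups, since ratios of counts between genes also reflect transcript length. The PLOD2 to PLOD1 ratio was 0.395, 0.394 and 0.320 in vehicle and 1.59, 1.20 and 1.25 with LPC. It was 0.765, 1.64 and 1.01 with dantrolene, and 1.53, 0.235 and 0.911 with both. The treated libraries lay above all vehicle libraries, except that LPC + dantrolene replicate 2 lay below them.

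The balance of LOX and LOXL2 was read in the same way, again without a test. Neither gene was called against vehicle in the fit of all libraries. The LOX to LOXL2 ratio was 0.184 ± 0.022 (mean ± SD, n = 3) in vehicle, 0.431 ± 0.123 with LPC, 0.344 ± 0.151 with dantrolene and 0.240 ± 0.163 with both. Vehicle (0.163 to 0.207) did not overlap LPC (0.292 to 0.527) or dantrolene (0.250 to 0.518). The combined treatment spanned 0.085 to 0.410, and without LPC + dantrolene replicate 2 its ratios were 0.224 and 0.410.

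**Figure D2:**
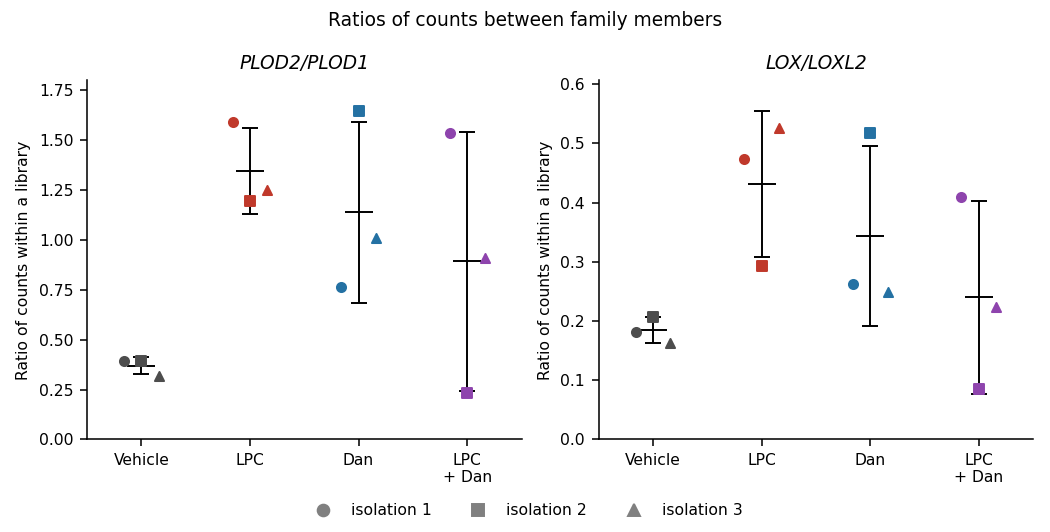
Ratios of counts of PLOD2 to PLOD1 and of LOX to LOXL2 within each of the 12 libraries (linear axes from 0; bars are the mean ± SD of 3 libraries, symbols the isolation). The vehicle ratios lie close together at 0.320 to 0.395 and 0.163 to 0.207, and the LPC + dantrolene libraries are spread from 0.235 to 1.53 and from 0.085 to 0.410.

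LOX, the founding lysyl oxidase and the main crosslinking enzyme of elastin and collagen (chr2:125595115-125607026), was at 523, 322 and 333 CPM in vehicle. With LPC it was at 536, 585 and 828 CPM, above all vehicle libraries, and every isolation was higher, by 0.03, 0.86 and 1.31 on the log2 scale. The fitted change of 0.73 (95% interval 0.07 to 1.38) did not pass the test (adjusted p = 0.227, edgeR). LOX was called up when only vehicle and LPC libraries were fitted (adjusted p = 0.0417) and without LPC + dantrolene replicate 2 (adjusted p = 0.0362). These fits called 1558 of 12568 and 1623 of 13583 genes up, against 1129 of 13216 with all 12 libraries.

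PLOD2 and LOX were thus 2 members whose LPC and vehicle libraries did not overlap upward, as was so for 16.6% of all genes tested. With dantrolene LOX was at 441, 463 and 354 CPM, within the vehicle range (0.10, adjusted p = 0.922, edgeR). With both compounds it was at 407, 195 and 323 CPM, below every LPC library. The difference from LPC was −1.07 (95% interval −1.73 to −0.41, adjusted p = 0.159, edgeR), and without LPC + dantrolene replicate 2 it was −0.84 (adjusted p = 0.265). LOX and PLOD2 were the members with no overlap downward in this comparison, which 4.93% of all genes showed. The LOX interaction was −1.17 and was not called (adjusted p = 0.161, edgeR), and without that library it was −0.998 (adjusted p = 0.2).

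LOXL4, a lysyl oxidase with scavenger receptor domains (chr14:109571942-109593408), was lower with dantrolene. It was at 106, 180.3 and 185 CPM in vehicle and 52.7, 80.9 and 65.9 CPM with dantrolene, with no overlap and a fall in each isolation of 1.01, 1.16 and 1.49 on the log2 scale. The fitted change was −1.24 ± 0.33, to 0.423 of vehicle (95% interval 0.268 to 0.670, adjusted p = 0.00713, edgeR). LPC alone left it at 149, 88.3 and 164 CPM, overlapping vehicle (−0.23, adjusted p = 0.749, edgeR).

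With both compounds LOXL4 was at 94.0, 88.5 and 45.5 CPM, all below the lowest vehicle library. That fall was −1.05 ± 0.33 (adjusted p = 0.0339, edgeR) and made LOXL4 the single member called down, where 0.900% of all genes were called down and 6.23% up. It was −1.10 without LPC + dantrolene replicate 2 (adjusted p = 0.00869). It was not called with the replicate block (adjusted p = 0.102), by DESeq2 (0.0535), with RLE factors (0.0596), total counts alone (0.151) or only the groups compared (0.201), or without vehicle replicates 2 or 3 (0.205 and 0.273), LPC replicates 1 or 2 (0.0593 and 0.0554), dantrolene replicate 1 (0.0627) or LPC + dantrolene replicate 3 (0.488). Those fits called 31 to 94 genes down, against 119 as reported. The dantrolene effect alone was sturdier, called in 15 of 19 alternatives including the replicate block (adjusted p = 0.026). It was lost with total counts alone (0.0618) and without vehicle replicate 2 (0.0747), vehicle replicate 3 (0.0897) or dantrolene replicate 1 (0.0912), again edgeR adjusted p-values. These fits called 61 to 129 genes down with dantrolene, against 166 as reported.

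LOXL1, which is needed for elastic fibre upkeep (chr7:59481410-59505161), was at 366, 271 and 372 CPM in vehicle and 223, 110.3 and 139 CPM with dantrolene. No dantrolene library reached the lowest vehicle library. The change was −1.10 ± 0.34, to 0.468 of vehicle (adjusted p = 0.0229, edgeR). With LPC LOXL1 was at 184, 239.8 and 285 CPM, lower in each isolation but overlapping vehicle, and the change of −0.51 did not pass (adjusted p = 0.526, edgeR).

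With both compounds LOXL1 was at 123, 269 and 136 CPM. Its isolation 2 library was almost at the level of its own vehicle library (log2 difference −0.01), and isolations 1 and 3 were lower by 1.57 and 1.45. The change from vehicle was −0.94 (adjusted p = 0.0785, edgeR), and −1.32 without LPC + dantrolene replicate 2 (adjusted p = 0.000932). The fit without that library called 393 of 13583 genes down, against 119 of 13216 with it. The call with dantrolene alone was lost with the replicate block (adjusted p = 0.0592), with total counts alone (0.0715), and without vehicle replicate 1 (0.0946), vehicle replicate 3 (0.153), LPC replicate 2 (0.0529), dantrolene replicate 2 (0.258) or dantrolene replicate 3 (0.142). These fits called 52 to 125 genes down with dantrolene, against 166 as reported.

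LOXL1, LOXL4 and PLOD1 were the 3 members called down with dantrolene, where 1.26% of all genes were called down, and none was called up, where 7.54% were. With PLOD3 they were the 4 members whose dantrolene libraries all lay below vehicle, as did those of 11.0% of all genes. With the replicate block 1 member, LOXL4, stayed called, and with total counts as the only scaling none did. Those fits called 77 and 61 of 13216 genes down, against 166 as reported. The direction of the members did not depend on scaling in this comparison: 8 of 10 were below 0 with TMM factors, with RLE factors and with total counts. The median member was at −0.58 and the median of all genes at −0.11, which moved to −0.34 and 0.13 with total counts. The summed level of 6 smooth muscle markers was 1708 to 2187 CPM with dantrolene and 2174 to 4309 CPM in vehicle. Its part in these falls, like that of the fibroblast marker sum and the mitochondrial share given above, was not tested.

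**Figure D3:**
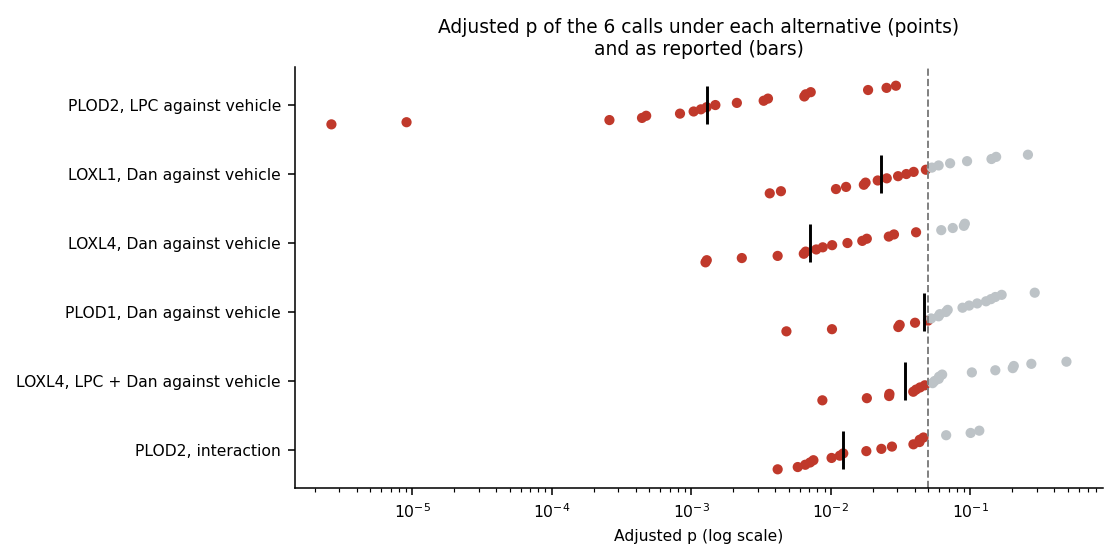
Adjusted p (log axis) of the 6 member calls in each alternative (points; red is under 0.05, the dashed line) and as reported (black bars). The PLOD2 call with LPC is under 0.05 in 19 of 19 alternatives, LOXL4 with dantrolene in 15 of 19, LOXL1 in 12, PLOD1 in 6, LOXL4 with both in 8, and the PLOD2 interaction in 15 of 18.

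LOXL2 and LOXL3 did not pass the test in any comparison. LOXL2, a scavenger-domain oxidase like LOXL3 and LOXL4 that crosslinks basement membrane and fibrillar collagen (chr14:7435861-7540699), was at 2869, 1555 and 2037 CPM in vehicle, 1129.8, 2002 and 1572 CPM with LPC, and 1678, 894 and 1419.7 CPM with dantrolene. It was at 993, 2290.2 and 1443 CPM with both. Its largest change from vehicle in the fit of all libraries was −0.69 with dantrolene (95% interval −1.37 to −0.02, adjusted p = 0.282, edgeR), lower in all 3 isolations while the groups overlapped. With both compounds the change was −0.45, and −0.77 without LPC + dantrolene replicate 2, neither of them called. The LOXL2 interaction was 0.70 (adjusted p = 0.549, edgeR), and 0.25 without that library.

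LOXL3, which has a role in craniofacial cartilage and collagen (chr3:68498114-68516829), was at 80.5, 164 and 129 CPM in vehicle and 92.7, 111 and 104 CPM with LPC. With dantrolene it was at 76.8, 79.6 and 82.6 CPM, a coefficient of variation of 3.6%. With both it was at 69.6, 133 and 87.6 CPM. The dantrolene change was −0.64 (95% interval −1.28 to −0.00, adjusted p = 0.303, edgeR). With both compounds the change was −0.36, and −0.61 without LPC + dantrolene replicate 2, neither of them called.

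The chaperone SERPINH1 (chr9:9782939-9794485) was at 1478, 1794 and 1940.5 CPM in vehicle and 1107, 1770.4 and 1558 CPM with LPC. It was at 1527, 931 and 1178 CPM with dantrolene and 1013, 1966 and 1175 CPM with both. The groups overlapped throughout, and its changes from vehicle were −0.23, −0.52 and −0.33 (adjusted p from 0.495 to 0.835, edgeR). The last of these was −0.61 without LPC + dantrolene replicate 2 (adjusted p = 0.187).

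BMP1, the procollagen C-proteinase (chr14:6443773-6489066), was at 189, 319 and 277 CPM in vehicle and 159.9, 199.5 and 221 CPM with LPC. It was at 179.7, 222 and 186 CPM with dantrolene and 158, 326 and 194 CPM with both. Its changes from vehicle lay between −0.44 and −0.21 and did not pass (adjusted p from 0.582 to 0.925, edgeR). With both compounds it was −0.21, and −0.52 without LPC + dantrolene replicate 2 (adjusted p = 0.265).

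The annotation places another gene over the loci of 6 of the 10 members. These are HTRA2 at LOXL3, ZNHIT1 at PLOD3, and unnamed loci at LOX, LOXL1, SERPINH1 and BMP1. Counting by strand is not stated, so the counts of these 6 genes, of which LOXL1 was called, are uncertain to that extent. PLOD2, PLOD1, LOXL4 and LOXL2 had no overlapping gene.

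**Figure D4:**
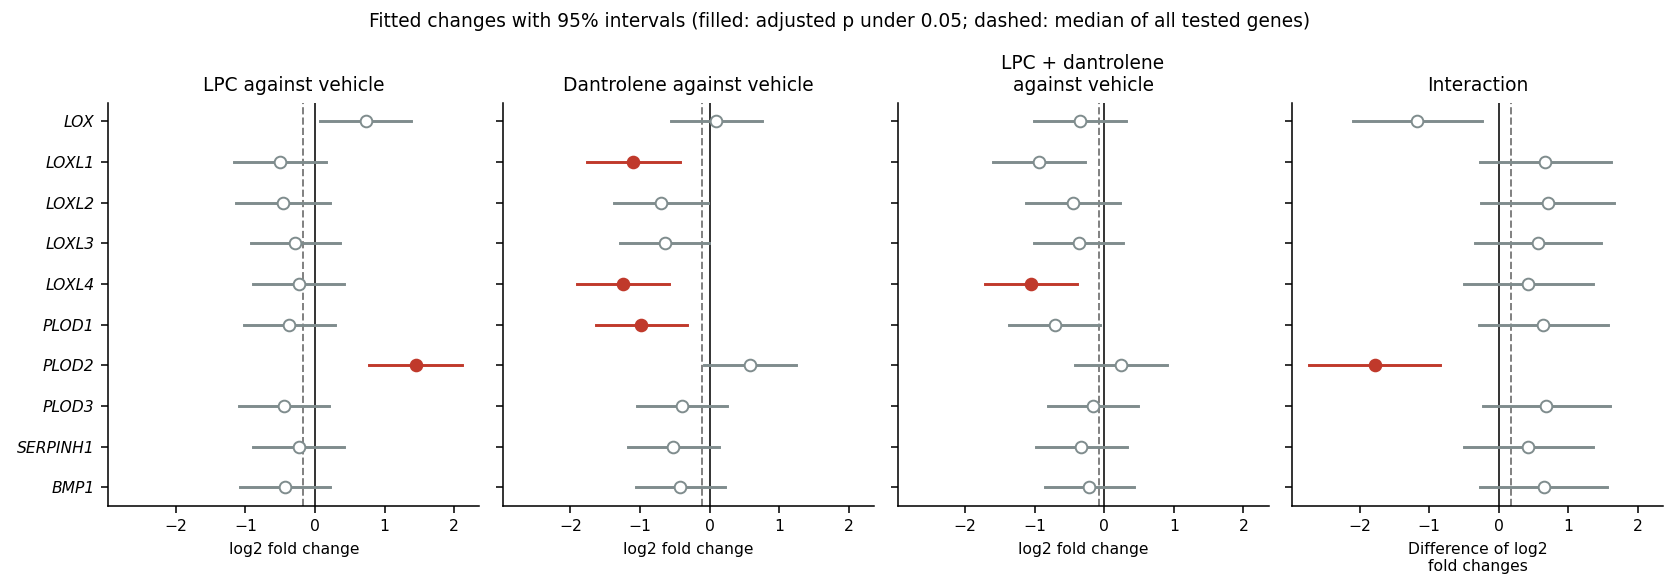
Fitted log2 fold changes of the 10 genes against vehicle for LPC, dantrolene and both, and the interaction, with 95% intervals (edgeR, 12 libraries). Filled red points have adjusted p under 0.05, and the dashed line is the median of all 13216 genes tested. PLOD2 stands at 1.45 with LPC and −1.79 in the interaction, and LOXL1, LOXL4 and PLOD1 at −1.10, −1.24 and −0.98 with dantrolene.

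The order of the 4 groups differed by gene, and few neighbours in that order were told apart. PLOD2 was highest with LPC (421 ± 56.3 CPM, mean ± SD, n = 3), followed by dantrolene (230.3 ± 52.4), both (182 ± 83.8) and vehicle (154 ± 31.8). The lower 3 groups did not differ beyond their spread, and LPC lay above all of them without overlap. The combined group averaged 229.8 CPM without LPC + dantrolene replicate 2, level with dantrolene. LOXL4 ran from vehicle (157 ± 44.1 CPM) over LPC (134 ± 40.1) and both (76.0 ± 26.6) to dantrolene (66.5 ± 14.1). Vehicle and LPC overlapped, as did both and dantrolene. LOXL1 and PLOD1 were highest in vehicle (336 ± 56.8 and 415 ± 52.6 CPM) and lowest with dantrolene (157 ± 58.4 and 211 ± 33.2 CPM), with LPC second. The combined group became the lowest for both genes without LPC + dantrolene replicate 2, at 129 and 198 CPM.

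Dantrolene against LPC gave no called member by edgeR or DESeq2, where edgeR called 0.325% of all genes. LOXL4 and PLOD2 were the 2 members with an unadjusted p under 0.05, beside 582 of 13216 genes in either direction. LOXL4 was at −1.01 (95% interval −1.67 to −0.35, adjusted p = 0.3, edgeR) and PLOD2 at −0.87 (95% interval −1.53 to −0.20, adjusted p = 0.591, edgeR). LOX, LOXL3, LOXL4 and PLOD2 (4 members) had all dantrolene libraries below all LPC libraries, as 4.68% of all genes did. LPC + dantrolene against dantrolene gave no called member by either tool, where edgeR called 3 genes or 0.0227% of all. In that comparison 0 members had an unadjusted p under 0.05, beside 169 of 13216 genes. In the comparison of LPC + dantrolene with vehicle, LOXL1, LOXL4 and PLOD1 did not overlap, where 5.74% of all genes did not overlap downward.

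The effect of dantrolene could be set side by side in libraries that are not shared, against vehicle without LPC and against LPC with it. For LOXL4 it was −1.24 and −0.82, for LOXL1 −1.10 and −0.43, and for PLOD1 −0.98 and −0.34. For PLOD2 it was 0.58 and −1.21, and for LOX 0.10 and −1.07. PLOD2 alone of these passed the test of the difference, which is the interaction given above. The interactions of LOXL4, LOXL1 and PLOD1 were 0.42, 0.67 and 0.64 (adjusted p = 0.707, 0.563 and 0.578, edgeR).

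The values against LPC rested on the library that stood apart. Without LPC + dantrolene replicate 2 the difference from LPC was −0.95 for LOXL4, −0.88 for LOXL1 and −0.71 for PLOD1, and their interactions were 0.23, 0.15 and 0.20. All 10 members were then below 0 against LPC with a median of −0.58, where 7 were below 0 with a median of −0.22 when it was included. None was called against LPC in either fit. Against dantrolene, 9 members were below 0 without that library and 2 with it.

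Across the 12 libraries the members fell into sets that ran together, described by Pearson's r of log2 CPM and given without a test, since all points share libraries, scaling and 4 treatments. LOX and PLOD2 had r = 0.86 (Spearman's rho 0.83), 0.77 without LPC + dantrolene replicate 2, and 0.76 for deviations from the group means. LOXL1 and PLOD1 had r = 0.92 and LOXL2 and PLOD1 0.90, both little changed without that library (0.91 and 0.90). SERPINH1 had r = 0.87 with LOXL1 and 0.86 with PLOD1, and BMP1 had r = 0.87 with LOXL3 (0.88, 0.86 and 0.85 without that library). PLOD2 and PLOD3 ran in opposite directions (r = −0.72, and −0.56 without LPC + dantrolene replicate 2).

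**Figure D5:**
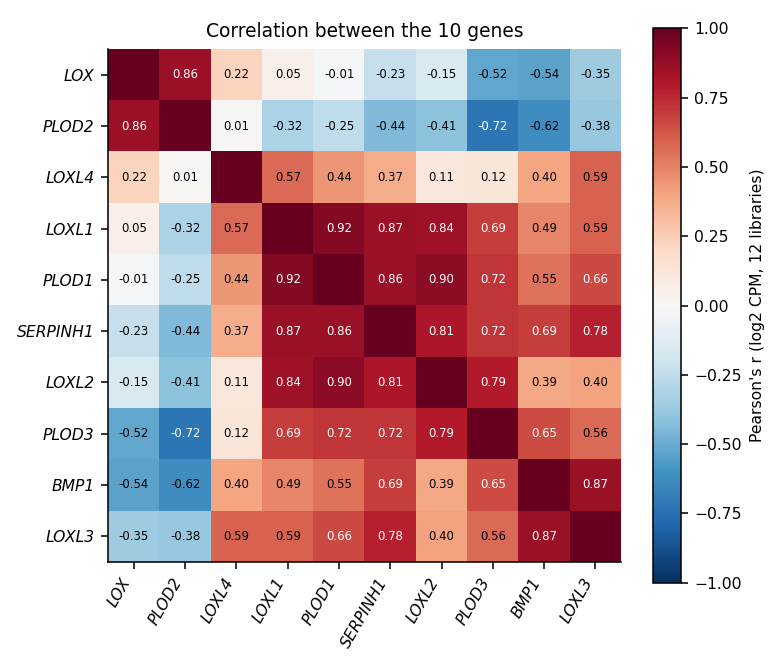
Pearson's r of log2 CPM between the 10 genes over 12 libraries (colour scale from −1 to 1). LOX and PLOD2 (0.86) form a pair apart from the block of LOXL1, PLOD1, SERPINH1, LOXL2 and PLOD3, in which LOXL1 and PLOD1 reach 0.92, and PLOD2 and PLOD3 are at −0.72.

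The genes whose levels ran most like the 4 members with the smallest adjusted p were listed in the same way. For PLOD2 they were PLS3 (r = 0.975), an actin-bundling protein, SPTY2D1 (0.974) and PKIA (0.974), an inhibitor of protein kinase A. For LOXL4 they included SFRP4 (0.967), a secreted Wnt antagonist, and HSPB7 (0.966). For LOXL1 they were TGFB3 (0.974), a transforming growth factor, ADARB1 (0.973) and TXNDC5 (0.966), a disulfide isomerase of the endoplasmic reticulum. TXNDC5 (0.961) also stood beside PLOD1, with STC2 (0.970) and GPI (0.958). Without the pair of libraries farthest from each member's median these values were 0.946 to 0.975.

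Genes that act before the crosslinking step were counted from lists. Of 16 genes of prolyl hydroxylation and chain folding, 1 was called up with LPC, the prolyl isomerase FKBP14, a share near the 8.54% of all genes called up. It was at 24.5, 19.8 and 19.8 CPM in vehicle and 49.5, 56.0 and 48.3 CPM with LPC (1.26, adjusted p = 0.00789, edgeR), and was not called without vehicle replicate 2 or LPC replicate 2 (highest adjusted p = 0.0811). P4HA1, the catalytic subunit of prolyl 4-hydroxylase, was at 451, 632 and 511 CPM with LPC and 261, 97.8 and 283 CPM with both. That difference of −1.31 was called (adjusted p = 0.0464, edgeR) and held in 3 of 15 alternatives. LPC + dantrolene replicate 2 was again the lowest library, and without it the difference was −0.98 (adjusted p = 0.118, edgeR). None of the 16 was called by edgeR with dantrolene, and their median was −0.41. FKBP14, P3H1 and P3H2 (3 genes) had an unadjusted p under 0.05 there, beside 2146 of 13216 genes in either direction.

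No gene of collagen secretion (8 tested) or propeptide cleavage (7 tested) was called by edgeR in any of the 7 comparisons, with 4 of 56 and 5 of 49 tests at an unadjusted p under 0.05. Of all genes, 169 to 2146 of 13216 had such a p, depending on the comparison. Of 9 fibrillar collagen chains tested, COL11A1 was called lower with both compounds than with LPC (−1.38, adjusted p = 0.0464, edgeR), in 3 of 15 alternatives. It was −1.51 without LPC + dantrolene replicate 2 (adjusted p = 0.0173, edgeR). The main substrates COL1A1, COL1A2 and COL3A1 were at −0.48, −0.25 and −0.09 with LPC and −0.65, −0.40 and −0.48 with dantrolene, none of them called (adjusted p from 0.30 to 0.91 by edgeR). With dantrolene COL1A1 lay below every vehicle library, as did 11.0% of all genes, while COL1A2 and COL3A1 overlapped vehicle. COL1A1 alone of the 9 chains had an unadjusted p under 0.05 there (0.049, edgeR), beside 2146 of 13216 genes in either direction.

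Among 12 genes of copper supply and matrix partners of the lysyl oxidases, 3 were called up with LPC, 2 with dantrolene and 2 with both, beside 8.54%, 7.54% and 6.23% of all genes. ATP7A, the copper pump that loads secreted cuproenzymes, was at 9.68, 6.13 and 5.52 CPM in vehicle, 21.9, 20.8 and 18.5 CPM with LPC, and 17.4, 26.1 and 17.4 CPM with dantrolene. It rose with LPC (1.52, adjusted p = 0.00381) and with dantrolene (1.51, adjusted p = 0.00466, both edgeR), but the LPC call was lost without vehicle replicate 2, LPC replicate 1 or LPC replicate 2 (highest adjusted p = 0.0771) and the dantrolene call without vehicle replicate 2 or dantrolene replicate 2 (highest adjusted p = 0.0901). With both compounds ATP7A was at 26.8, 3.42 and 22.2 CPM, low in the library that stood apart. That rise was 1.30 (adjusted p = 0.0215), called in 8 of 15 alternatives, and 1.83 without that library (adjusted p = 4.02e-06, edgeR).

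Lumican (LUM), a leucine-rich proteoglycan of collagen fibrils, was at 139.6, 70.9 and 115 CPM in vehicle, 180.0, 413 and 235 CPM with LPC and 336, 366 and 275 CPM with dantrolene. It rose with dantrolene in all 15 alternatives (1.59, adjusted p = 0.000608, edgeR) and with LPC in 13 of 15 (1.35, adjusted p = 0.00351, edgeR). With both compounds its rise was also 1.35 (adjusted p = 0.0042, edgeR), in 14 of 15, and 1.69 without LPC + dantrolene replicate 2. Periostin (POSTN), a matricellular partner of BMP1, rose with LPC (1.60, adjusted p = 0.00188, edgeR), and this was lost without vehicle replicate 2 or LPC replicate 2 (highest adjusted p = 0.316). In the interaction ATP7A (−1.73, adjusted p = 0.0437) and LUM (−1.58, adjusted p = 0.0367, both edgeR) were called lower, in 6 and 9 of 15 alternatives. Both calls were lost with the replicate block and with total counts alone (adjusted p = 0.169 and 0.0711). Without LPC + dantrolene replicate 2 ATP7A was at −1.31 (adjusted p = 0.061) and LUM at −1.38 (adjusted p = 0.0451, edgeR).

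PLOD2, LOX and P4HA1 are known targets of hypoxia-inducible factor, so other genes of that response were counted. Of 18 tested, none was called by edgeR with LPC, and 2 (BNIP3L and PDK1) had an unadjusted p under 0.05, beside 2099 of 13216 genes. With dantrolene 6 were called down (ADM, BNIP3, ANKRD37, LDHA, HK2 and PFKFB3), and the same 6 were called down with both compounds, beside 1.26% and 0.900% of all genes. HK2, a hexokinase, was at 74.6, 133 and 64.2 CPM in vehicle and 17.4, 31.0 and 36.2 CPM with dantrolene (−1.68, adjusted p = 0.00021, edgeR). PFKFB3, a regulator of glycolysis, was at 88.1, 96.1 and 77.2 CPM in vehicle and 22.1, 26.2 and 33.3 CPM with dantrolene (−1.68, adjusted p = 0.000236, edgeR).

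With the replicate block 4 of the 6 stayed called with dantrolene and 5 with both, and with total counts alone 3 and 4 did. BNIP3, HK2 and PFKFB3 were called with dantrolene in all 15 alternatives run, LDHA in 10, ADM in 5 and ANKRD37 in 3. Without LPC + dantrolene replicate 2 the 6 were called again with both compounds, with NDRG1 and PGK1 added. That fit called 393 of 13583 genes down. The list had a median of −0.63 with dantrolene and −0.21 with LPC, beside −0.11 and −0.18 for all genes. PLOD2 and LOX were at 0.58 and 0.10 with dantrolene. The other 8 members were below 0 there, among them LOXL4, LOXL1 and PLOD1, which were called down. Any link of the members to this list was not tested.

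Against LPC the list median, PLOD2 and LOX were all lower, with no gene of the list called. For LPC + dantrolene the list median was −0.68 (−0.70 without LPC + dantrolene replicate 2). Of its 18 genes 10 had an unadjusted p under 0.05, all lower, beside 874 of 13216 genes tested in either direction. PLOD2 and LOX were at −1.21 and −1.07 there. For dantrolene against LPC the list median was −0.55, and PLOD2 and LOX were at −0.87 and −0.63. There 7 of 18 genes had an unadjusted p under 0.05, all lower, beside 582 of 13216 in either direction. The medians of all genes in these comparisons were 0.017 and 0.016. Both comparisons share the LPC libraries. Lower values were not particular to PLOD2 and LOX. Of the 10 members 7 were below 0 for LPC + dantrolene against LPC and 8 for dantrolene against LPC, with medians of −0.22 and −0.47. Whether the list and the members share a cause was not tested.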

How the data were processed

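RNA of 12 paVIC libraries was sequenced after poly(A) selection. The authors deposited whole-number counts per Ensembl gene, adjusted for batch with ComBat before deposit; the methods name STAR and the submitters' processing notes HISAT2 2.0.5, R 4.1.1, DESeq2 1.32.0 and Sscrofa11.1, and the counter is not given in the sources used here. No degrees of freedom were charged for the batch adjustment, so p-values may be too small.

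Genes were filtered with filterByExpr, scaled with TMM and tested with the edgeR 4.0.16 quasi-likelihood test (R 4.3.3) in 1 fit of 12 libraries by group, with 7 comparisons, each adjusted by Benjamini-Hochberg over 13216 genes and called at adjusted p under 0.05. The fit was also run on simulated counts drawn without batch adjustment or shared isolations, which cannot show whether p-values hold for these adjusted counts. CPM are TMM-scaled, and log2 CPM used a prior count of 2. Intervals are 95%.

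The sample titles give replicate numbers only. Since each experiment used 1 isolation and 1 replicate per group, same-numbered libraries were taken to share an isolation and to be paired by design. Their deviations from group means had a median correlation of −0.152 (−0.536 to 0.207, 18 pairs) after ComBat, against 0.108 for other pairs. Alternatives were DESeq2 1.42.0, RLE factors, total counts alone, both filters, only the groups compared, a replicate block and each library left out. For companion genes, 15 alternatives were added after seeing the data, as were group means, ratios and list medians without LPC + dantrolene replicate 2.

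The members and lists were chosen with earlier results of these data known. Named genes were all 10 members, the companion lists, and for the 4 members with the smallest adjusted p the 3 genes with the highest r, of which 1 for LOXL4 is not reported here. No row was found for 6 listed genes (MIA2, CTAGE5, KLHL12, PCOLCE2, MEP1A, SLC2A1), and 4 did not pass the filter (MEP1B, COL2A1, COL11A2, ALDOA). Positions were matched by symbol to RefSeq for 10 of 10 genes.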

Additional observations from a re-analysis of the deposited data

Results flagged for a closer look

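PLOD2 was flagged because its response to LPC differed with and without dantrolene by the test of the difference itself. The interaction was −1.79 on the log2 scale (adjusted p = 0.0123, edgeR quasi-likelihood test, n = 3 per group). LPC raised PLOD2 in all 3 isolations without dantrolene (log2 differences of 0.96, 1.67 and 1.74), and with dantrolene the differences were 0.42, −1.72 and −0.05. The isolation 2 value rests on the library that stood apart, and the interaction without it was −1.52.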

How the results depend on the processing

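With 3 libraries per group, standard errors near 0.33 on the log2 scale limited what could be called. Of 70 member values, the 6 called kept their direction in every alternative, and 17 of the 64 not called took the other sign in at least 1. The number of members called with LPC was 1, 2 when only the groups compared were fitted (LOX added), and 1 to 2 with a library left out. With dantrolene it was 3, 0 with total counts alone, 1 with the replicate block, and 0 to 3 with a library left out. Over all genes 166 were called down with dantrolene, 61 with total counts alone, 77 with the replicate block and 52 to 284 with a library left out. With both compounds against vehicle the number of members called was 1. It was 0 with DESeq2, RLE factors, total counts alone, only the groups compared and the replicate block. With a library left out it was 0 to 3 (3 without LPC + dantrolene replicate 2). Without that library 393 of 13583 genes were called down, against 119 of 13216 with it. The alternatives with 0 members called that left no library out called 31 to 90 genes down. For LPC + dantrolene against LPC the number of members called was 0, 1 with at least 10 counts required in every sample (PLOD2), and 0 to 1 with a library left out. For the interaction it was 1, and 0 to 1 with a library left out. Over all genes 593 were called below 0 in the interaction, and 4 to 889 with a library left out. The remaining comparisons had 0 members called in all alternatives. The replicate block changed no other member count. The causes were not tested. When a left-out library leaves 2 in a group, those are assumed to vary like the other groups. With total counts alone the median of all genes moved from −0.18 to −0.0023 with LPC, from −0.11 to 0.13 with dantrolene and from −0.080 to 0.12 with both.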
